A study of Rattus norvegicus with 12 samples.

Results

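Hypoxic and normoxic rat hearts differed in 1038 of 12154 tested genes when the ventricles of each heart were averaged. The genes that rose with the smallest p-values included Inha, Gpx1, Klhdc8b and Bok, all raised in both the right ventricle (RV) and the left ventricle (LV). The steadiest fall was that of Fam131c. The broadest fall among the pathways examined was that of fatty acid oxidation, with 19 of 35 genes lower (54.3%, beside 4.2% of all genes). Within the LV alone 0 of the 35 passed as lower, and refits without 1 heart left 0 to 23 lower. The pathways were chosen with earlier results of these data known. Of the genes that HIF is known to switch on, 4 of 29 rose and 1 fell (13.8% and 3.4%, beside 4.34% and 4.2% of all genes).

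The response described is the average effect of hypoxia over the RV and the LV of a heart. For each rat the log2 expression values of its RV and its LV were averaged, and the averages of 3 hypoxic hearts were compared with those of 3 normoxic hearts, so the heart was the unit of replication (n = 3 per group) and the 12 libraries counted as 6 values per gene. Genes at a TPM (a length-corrected share of a library's transcripts) of 1 or more in at least 3 libraries were tested, 12154 of the 23553 entries in the table. The rule made no use of the size or direction of any difference, but a low gene can meet it through the libraries of 1 exposure alone. The averaging alone does not make a response common to both ventricles, so the RV and LV values of each gene and the difference between them are given as well.

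The hypoxic rats were male Sprague-Dawley animals of 3 to 4 months kept at 10% O2 in a hypobaric chamber for 2 weeks, and the normoxic rats were of the same sex, stock and age range and breathed room air. The free wall of the RV and that of the LV were taken from every heart and sequenced separately as polyadenylated RNA, giving 3 libraries for each ventricle and exposure. Hypoxic hearts carry the numbers 1, 2 and 4 and normoxic hearts the numbers 1, 2 and 3. No agent or genetic change was used, and each exposure is represented by 3 animals of an outbred stock. In this model the small arteries of the lung constrict and remodel, so the RV works against a raised pressure while the LV does not, but both ventricles receive the same hypoxic, haemoglobin-rich blood and the same circulating signals. With no animals that had low oxygen without raised RV load, low oxygen, circulating signals and load cannot be told apart in the mean of both ventricles.

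When oxygen falls, the prolyl hydroxylases that mark the HIF alpha subunits for destruction lose activity, and HIF then binds short DNA elements near genes for glycolysis, iron and oxygen transport and vessel growth. The adult heart normally takes most of its ATP from fatty acids, whose oxidation enzymes are switched on by the nuclear receptor PPAR-alpha, and it shifts toward glucose under low oxygen or under load. Low oxygen acts on the whole animal too, through red cell production, appetite and hormones.

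Of the 12154 genes, 527 were higher and 511 lower in hypoxic hearts at an adjusted p below 0.05 (limma on heart means of log2 scaled TPM + 1, Benjamini-Hochberg over all 12154 genes), which is 4.34% and 4.2% of the genes tested. The list counts further down are to be read beside these shares. They are a description and no test, because the lists were chosen with earlier results of these data known. The median log2 difference was 0.57 among the genes that rose (0.68 in the RV and 0.44 in the LV) and -0.55 among those that fell (-0.64 in the RV and -0.45 in the LV), and 77 and 46 of them differed by at least 1 on the log2 scale. Within the RV alone 955 genes were higher and 926 lower, 7.86% and 7.62% of those tested. Within the LV alone 33 were higher and 32 lower, 0.272% and 0.263%. With 1 heart left out at a time, the RV counts ranged over 151 to 1359 higher and 106 to 1484 lower and the LV counts over 6 to 17 higher and 1 to 12 lower, the RV extremes being reached without normoxic heart 1 and without hypoxic heart 4.

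The ventricles shared the direction of nearly all of these changes. Both moved the same way in 524 of the 527 genes that rose and in 510 of the 511 that fell, against 8891 of all 12154 genes, but a gene called on the mean of both ventricles is favoured to have that property. In 315 (59.8%) of the genes that rose and 390 (76.3%) of those that fell, the ventricular effects had the same sign and the smaller was at least 0.5 times the larger one, against 37.7% of all genes. These are called alike in what follows. All 3 hypoxic libraries lay beyond all 3 normoxic libraries in each ventricle, in the same direction, for 353 of the 527 and 427 of the 511 genes. Among all tested genes 698 had that separation upward and 859 downward, 5.74% and 7.07%. A call on the mean of both ventricles also favours being alike and being separated. These shares therefore describe the called genes and are no separate support for a common response.

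Sharing a direction did not mean sharing a size. The RV had the larger effect in 388 (73.6%) of the genes that rose and 419 (82.0%) of those that fell, against 63.0% of all genes. In a direct test of the RV effect against the LV effect, 0 genes passed an adjusted p of 0.05 in either direction (0% of those tested, limma, n = 3 hearts per group), whereas the unadjusted p was below 0.05 for 813 genes whose RV effect was above their LV effect and for 864 whose RV effect was below it. edgeR on the 12 libraries, without a term for the heart, also gave 0 in either direction, with 483 and 460 at an unadjusted p below 0.05, while limma with rat as a block and limma on the TPM as deposited each gave 1 and 1. An absent call here does not show equal effects. The 95% interval of the difference between the ventricles lay within 1 log2 unit of 0 for 361 of the genes that rose and 463 of those that fell. Across all genes the RV and LV effects had a Pearson correlation of 0.64, a description over genes that come from the same 6 hearts.

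**Figure D1:**
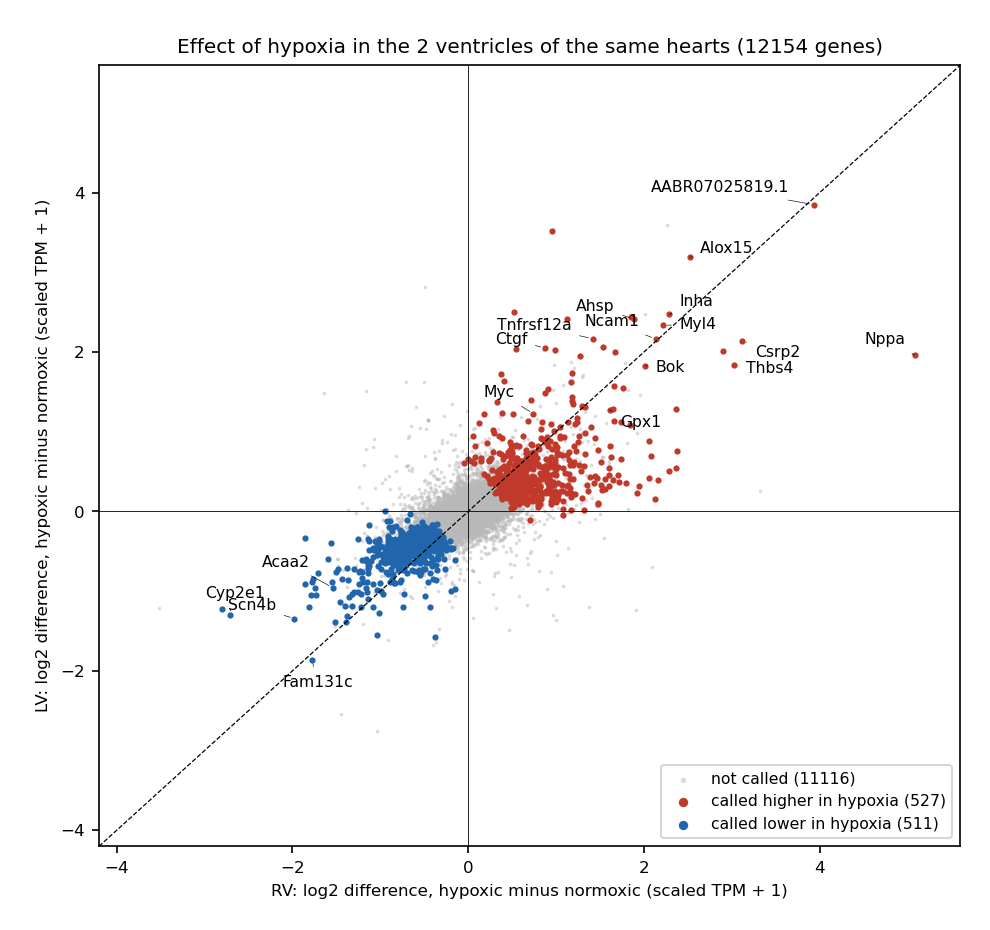
Log2 difference between hypoxic and normoxic RV (horizontal axis) against the same difference in the LV (vertical axis) for each tested gene, with genes that passed the test on the mean of both ventricles marked by direction and a dashed line where both effects are equal. The called genes lie in the upper right and lower left quadrants in 1034 of 1038 cases, and the RV effect is the larger in 388 of the 527 that rose and 419 of the 511 that fell.

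The libraries held 21468274 to 39991848 estimated counts. Transcripts of the mitochondrial genome took 38.26 to 44.1% of the values in hypoxic libraries and 45.07 to 50.56% in normoxic libraries, and TMM scaling (factors 0.855 to 1.196) set the median difference to 0.00, where the deposited TPM gave 0.11. Without it 1052 genes were called higher and 309 lower, but no gene called with it changed sign. The number of calls depended on which hearts entered. Refits gave 52 higher and 18 lower without hypoxic heart 1, 40 and 31 without hypoxic heart 2, 13 and 3 without normoxic heart 1, 86 and 75 without normoxic heart 2, 21 and 14 without normoxic heart 3, and 939 and 938 without hypoxic heart 4, which was the hypoxic heart nearest to normoxia in 764 of the 1038 called genes. Of the 527 and 511 calls these refits kept 46 and 16, 39 and 31, 12 and 3, 82 and 68, 20 and 13, and 485 and 481, in the same order. The median called difference was 0.95 to 1.11 times that of all hearts, and all 1038 kept their sign in each refit. Genes called on all hearts are favoured to keep sign and size when 1 is left out, so this is no separate support for the calls. The ventricular myocyte list of 17 genes had a median difference of -0.21 with only Atp2a2 lower, and its summed level in scaled TPM was 56845 to 73052 in hypoxic RV and 69506 to 90980 in hypoxic LV, against 72392 to 76121 in normoxic RV and 81181 to 86697 in normoxic LV. In bulk tissue, fewer cells of a type and less RNA per cell cannot be told apart.

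Only 9 genes that rose and 2 that fell kept their call when any single heart was left out. Those that rose were Inha, Bok, Gpx1, Klhdc8b, Myc, Nppa, Dpep2 and the unnamed entries AABR07025819.1 and LOC100910446, and those that fell were Fam131c and RT1-DMb. All but LOC100910446 also kept it under every other processing alternative tried. Every other call lost its adjusted p below 0.05 in at least 1 of these fits, while none of the 199 genes followed through the alternatives reversed its direction. Most of the 199 were followed because they were called, which favours that outcome.

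Inha, the alpha subunit of the inhibins, was about as strongly raised in the LV as in the RV. It stood at 46.6, 42.7 and 31.7 scaled TPM in the RV of hypoxic hearts 1, 2 and 4, against 7.12, 7.43 and 7.54 in the RV of normoxic hearts 1, 2 and 3. In the LV it stood at 55.8, 49.1 and 49.7 in the hypoxic hearts, against 6.77, 10.2 and 8.68 in the normoxic hearts. Every hypoxic library was above every normoxic one. The log2 difference of the heart means was 2.38 ± 0.12 (SE, limma, adjusted p = 0.000581), with 2.29 in the RV and 2.47 in the LV and an RV minus LV difference of -0.18 (95% interval -0.57 to 0.20).

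Bok, a BCL2 family member of the apoptosis machinery, had 24.1, 29 and 19 scaled TPM in hypoxic RV and 24.3, 28.4 and 18.2 in hypoxic LV, against 4.46, 4.9 and 6.05 in normoxic RV and 7.77, 5.19 and 4.88 in normoxic LV. Its groups did not overlap in either ventricle, and its log2 difference was 1.92 ± 0.15 (limma, adjusted p = 0.00343), 2.02 in the RV and 1.83 in the LV. Gpx1, the abundant selenium-dependent peroxidase of cytosol and mitochondria, had 1436, 1365 and 1376 scaled TPM in hypoxic RV and 1448, 1938 and 1736 in hypoxic LV, against 437, 475 and 456 in normoxic RV and 690.3, 777 and 642 in normoxic LV. It was higher by 1.44 ± 0.09 (limma, adjusted p = 0.00175), and the RV minus LV difference was 0.34 (95% interval -0.04 to 0.71). Klhdc8b, a kelch-domain protein of the dividing cell's midbody, rose by 1.47 ± 0.10 (limma, adjusted p = 0.00196), 1.65 in the RV and 1.29 in the LV.

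Myc, the growth-promoting transcription factor, was a low transcript that rose in both ventricles, more in the LV. It had 4.83, 4.7 and 3.67 scaled TPM in hypoxic RV and 5.17, 4.35 and 5.72 in hypoxic LV, against 2.06, 1.96 and 2.66 in normoxic RV and 1.76, 1.6 and 1.41 in normoxic LV. The log2 difference was 0.98 ± 0.08 (limma, adjusted p = 0.00343), and the RV minus LV difference was -0.49 (95% interval -0.95 to -0.02), unadjusted p = 0.0439 by limma. The entry AABR07025819.1 had the largest rise among these 11 genes, 3.89 ± 0.26, with heart values of 26.6, 31.8 and 57.1 scaled TPM in the hypoxic hearts, against 1.78, 1.21 and 1.62 in the normoxic hearts (limma, adjusted p = 0.00196). A heart value is the geometric mean of scaled TPM + 1 over both ventricles, less 1.

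Fam131c was the clearest fall. Its RV held 9.34, 8.35 and 10.6 scaled TPM in hypoxic hearts, against 31, 36 and 37.1 in normoxic hearts, and its LV held 8.05, 7.11 and 7.77 in hypoxic hearts, against 30.8, 31.6 and 28.6 in normoxic hearts. The highest hypoxic library, at 10.6, was below the lowest normoxic one, at 28.6. The log2 difference was -1.82 ± 0.08 (limma, adjusted p = 0.000576), -1.78 in the RV and -1.86 in the LV, with an RV minus LV difference of 0.08 (95% interval -0.20 to 0.36). RT1-DMb, the beta chain of the rat class II peptide-loading chaperone, stood at 16.5, 17.2 and 15.3 scaled TPM in hypoxic hearts, against 33.2, 35.2 and 32.3 in normoxic hearts. It fell by 0.99 ± 0.07 on the log2 scale (limma, adjusted p = 0.00339), equally in both ventricles, with a difference of 0.00 (95% interval -0.24 to 0.24). Its partner chain RT1-DMa was higher, by 0.51 ± 0.11 (limma, adjusted p = 0.0409). These were the only 2 called genes of the 17 class I and II presentation genes tested, 5.9% in each direction beside 4.34% and 4.2% of all genes.

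**Figure D2:**
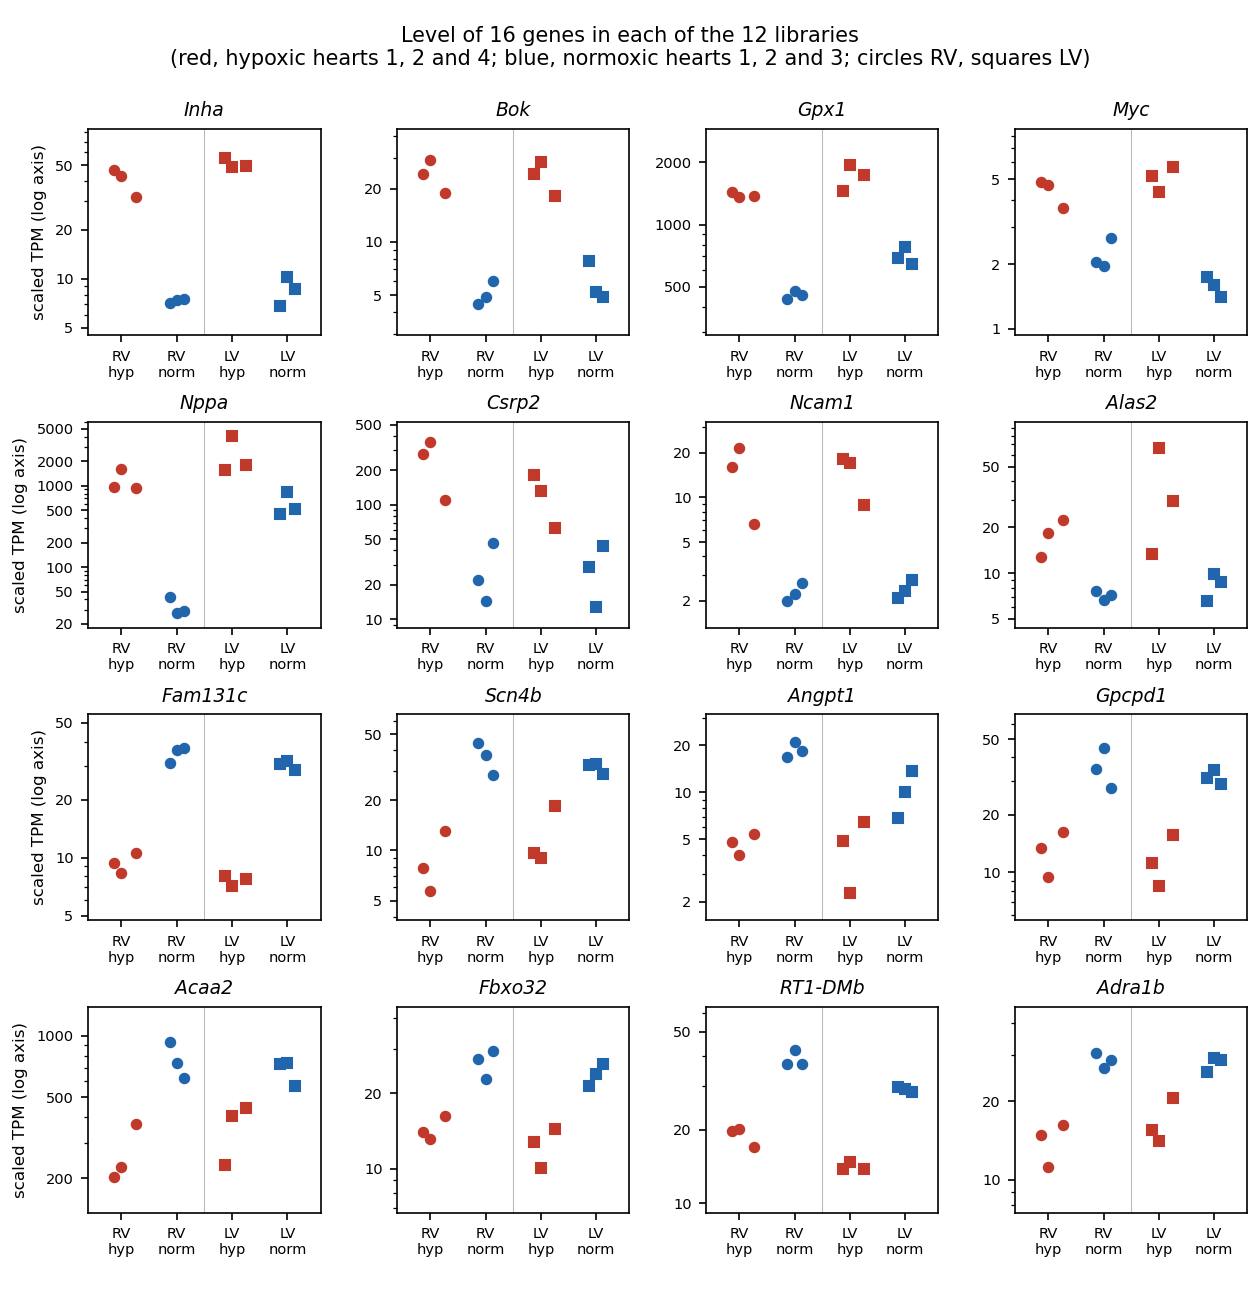
Scaled TPM on a log axis in each of the 12 libraries for 16 called genes, each point 1 library, with hypoxic libraries (red) left of normoxic ones (blue) within the RV (circles) and within the LV (squares). Inha, Bok and Gpx1 are higher in every hypoxic library of both ventricles, and Fam131c and RT1-DMb are lower in every one.

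The 15 genes with the largest rise and the 15 with the largest fall were taken among those past the test, at a mean of at least 5 TPM, alike in both ventricles, with no overlap between the groups in either and with a gene symbol that is not a bare identifier. Nppa, with a difference of 3.52, was not alike and is described with the load genes. Being alike was thus a condition, and the values that follow on the ventricles describe the choice. The rise among these 15 lay between 2.69-fold and 7.24-fold and the falls between 0.284-fold and 0.456-fold, on the scale of scaled TPM + 1. The RV effect was the larger in 8 of the 15 that rose and 13 of the 15 that fell, and the difference between the ventricles had an unadjusted p below 0.05 in 5 and 6 of them. Called in the RV alone were 29 of the 30 and in the LV alone 13. Without hypoxic hearts 1, 2 and 4 the call was kept by 14, 12 and 30 of the 30 genes, and without normoxic hearts 1, 2 and 3 by 6, 11 and 6.

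Beyond Inha, Bok, Gpx1 and Klhdc8b, the largest rises included an enzyme of lipid signalling and several muscle and cytoskeleton genes. Alox15, which oxygenates polyunsaturated fatty acids, had heart values of 5.86, 44.2 and 17.2 scaled TPM in hypoxic hearts, against 1.29, 1.68 and 1.41 in normoxic hearts, a log2 difference of 2.86 ± 0.59 (limma, adjusted p = 0.0345). The LV library of hypoxic heart 2 held 81.3, against 5.5 to 23.9 in the other hypoxic libraries, and without that heart the difference was 2.18 and did not pass. Nor did it pass without any one of the normoxic hearts, with adjusted p-values of up to 0.122 by limma. Csrp2, a LIM-domain protein best known from smooth muscle, rose by 2.63 ± 0.50 and more in the RV (3.12 in the RV and 2.14 in the LV). Tceal7, of a family of transcription elongation factor-like proteins, rose by 2.46 ± 0.39, likewise more in the RV (2.90 in the RV and 2.01 in the LV). Ncam1, the neural cell adhesion molecule that is also carried by muscle, had almost the same difference in each ventricle (2.13 in the RV and 2.17 in the LV), with 17.1, 19.4 and 7.73 scaled TPM in hypoxic hearts, against 2.04, 2.27 and 2.71 in normoxic hearts. Irx4, the homeobox factor that marks ventricular myocytes, differed by 1.66 in the RV and 1.57 in the LV. Tnfrsf12a, the receptor for the cytokine TWEAK, and the small GTPase Rnd1 rose by 1.79 ± 0.18 and 1.61 ± 0.26, and both had the larger effect in the LV. Ankrd23, a titin-associated ankyrin protein of striated muscle, rose by 1.46 ± 0.31.

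The largest falls after Fam131c were in channels, in vascular and in metabolic genes. Scn4b, a beta subunit of cardiac sodium channels, had 8.7, 7.2 and 15.6 scaled TPM in hypoxic hearts, against 37.8, 35.1 and 28.6 in normoxic hearts, a log2 difference of -1.66 ± 0.25 (limma, adjusted p = 0.0187). Angpt1, the ligand that keeps the endothelial receptor Tie2 active, fell to 4.85, 3.04 and 5.92 scaled TPM in hypoxic hearts, against 10.9, 14.7 and 15.9 in normoxic hearts, a difference of -1.42 ± 0.21 (limma, adjusted p = 0.0187). Gpcpd1, a phosphodiesterase of choline lipid breakdown, differed by -1.40 in the RV and -1.39 in the LV. Kcnk2, a stretch-sensitive background potassium channel, fell by 1.35 ± 0.20 on the log2 scale, and the gap junction gene Gja3 by 1.29 ± 0.18. The fatty acid thiolase Acaa2 is described with its pathway. The others that fell were Klhl33, Csdc2, Actr3b, Ddit4l, Adhfe1, Dcxr, Lrrc10 and Dhrs7c, with log2 differences between -1.39 and -1.13. Lrrc10 is a cardiac leucine-rich repeat protein of the sarcomere region, Ddit4l restrains growth signalling through mTOR, and Dhrs7c is a dehydrogenase of the sarcoplasmic reticulum.

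A minority of HIF target genes changed in these hearts. Of 29 tested, 4 were higher and 1 lower, 13.8% and 3.4% beside 4.34% and 4.2% of all genes, with a median log2 difference of -0.05 beside 0.00 over all genes, and 14 had a positive sign (20, with a median of 0.08, with the TPM as deposited). All 5 called genes were alike in both ventricles and separated the exposures in each. Leaving out hearts gave higher counts of 2, 1 and 5 without hypoxic hearts 1, 2 and 4 and 0, 1 and 0 without normoxic hearts 1, 2 and 3. The promoters of 4 of the called genes are shown because the binding core of HIF can be looked for in them. They are the 250 bases before the RefSeq transcription start, read 5′ to 3′ in the direction of the gene from RefSeq on the rat build GRCr8, with the hypoxia response element core ACGTG, searched on both strands, in capitals, so that CACGT stands for a match on the other strand and a run matched on both is in capitals throughout.

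Ldha: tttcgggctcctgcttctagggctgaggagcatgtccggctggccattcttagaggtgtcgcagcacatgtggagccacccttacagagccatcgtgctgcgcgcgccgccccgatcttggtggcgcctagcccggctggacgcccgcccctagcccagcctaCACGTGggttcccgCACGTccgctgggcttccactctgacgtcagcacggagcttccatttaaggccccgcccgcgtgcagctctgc
Bnip3: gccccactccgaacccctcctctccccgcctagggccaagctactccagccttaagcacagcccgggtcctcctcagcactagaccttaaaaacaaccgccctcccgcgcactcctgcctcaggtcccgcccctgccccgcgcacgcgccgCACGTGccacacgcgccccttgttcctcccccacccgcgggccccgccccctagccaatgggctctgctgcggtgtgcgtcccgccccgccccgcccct
Edn1: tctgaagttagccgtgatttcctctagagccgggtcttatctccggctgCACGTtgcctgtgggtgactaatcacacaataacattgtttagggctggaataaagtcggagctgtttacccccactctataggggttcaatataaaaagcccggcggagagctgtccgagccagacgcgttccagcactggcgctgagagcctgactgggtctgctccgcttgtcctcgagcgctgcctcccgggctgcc
Apln: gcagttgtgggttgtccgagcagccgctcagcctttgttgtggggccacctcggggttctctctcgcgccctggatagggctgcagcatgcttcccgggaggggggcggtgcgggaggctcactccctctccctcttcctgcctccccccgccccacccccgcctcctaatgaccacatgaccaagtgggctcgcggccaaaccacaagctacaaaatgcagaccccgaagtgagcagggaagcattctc

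These windows lie at chr1:106507842-106508091 on the plus strand for Ldha, chr1:203154963-203155212 on the minus strand for Bnip3, chr17:22666688-22666937 on the minus strand for Edn1 and chrX:132091247-132091496 on the minus strand for Apln. Overlapping matches were counted as 1 site. Ldha held 2 sites, whose first letters lie 87 and 73 bases before the start, Bnip3 held 1 at 99 bases, Edn1 held 1 at 201 bases, and Apln held none, nor did the window of P4ha1, the other called gene. The core was present in 16.9% of 27457 promoters of this length, in 22.3% of the 8715 tested genes that could be matched and in 16 of the 24 matched HIF target genes. Among the called HIF target genes it was found in 3 of 4 that rose and 0 of 1 that fell. The core overlaps the E-box CACGTG bound by other factors, which 5.8% of all promoters held. A match is letters in a window, and no binding was measured.

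Ldha, which turns pyruvate into lactate, had 842, 997 and 965 scaled TPM in hypoxic RV and 926, 1142 and 969 in hypoxic LV, against 661, 584 and 612 in normoxic RV and 690.5, 673 and 704 in normoxic LV. Its rise of 0.57 ± 0.09 (limma, adjusted p = 0.021) was nearly equal in the ventricles, with an RV minus LV difference of 0.04 (95% interval -0.23 to 0.32). Bnip3, a mitochondrial protein of mitophagy and cell death, had 207, 184 and 201 scaled TPM in hypoxic RV and 237, 369 and 322 in hypoxic LV, against 129, 114 and 116 in normoxic RV and 175, 183 and 192 in normoxic LV. The difference was 0.72 ± 0.08 (limma, adjusted p = 0.0155), 0.71 in the RV and 0.73 in the LV. Both genes had higher values in every hypoxic library than in any normoxic library of the same ventricle.

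P4ha1, the collagen prolyl hydroxylase subunit, rose by 0.72 ± 0.15 (limma, adjusted p = 0.035), with heart values of 25.9, 18.9 and 17.6 scaled TPM in hypoxic hearts, against 13, 12.6 and 10.7 in normoxic hearts. Edn1, the precursor of the vasoconstrictor endothelin, was low throughout, with 2.01, 1.98 and 2.15 scaled TPM in hypoxic hearts, against 1.36, 1.19 and 1.08 in normoxic hearts, and rose by 0.47 ± 0.09 (limma, adjusted p = 0.0288). Apln, an endothelial peptide that dilates vessels and strengthens contraction, went the other way. It had 4.75, 3.14 and 6.05 scaled TPM in hypoxic RV and 5.3, 3.17 and 3.69 in hypoxic LV, against 10.6, 9.87 and 10.5 in normoxic RV and 9.51, 7.18 and 9.96 in normoxic LV, a difference of -1.01 ± 0.15 (limma, adjusted p = 0.0187), -1.04 in the RV and -0.98 in the LV.

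Other well-known targets did not pass. The log2 difference was -0.17 ± 0.08 for Vegfa, the main vessel growth factor, -0.40 ± 0.23 for the glucose transporter Slc2a1, -0.30 ± 0.12 for the pyruvate dehydrogenase kinase Pdk1, 0.17 ± 0.11 for the prolyl hydroxylase Egln3 and 0.51 ± 0.18 for heme oxygenase Hmox1 (limma, adjusted p = 0.196, 0.28, 0.134, 0.322 and 0.115 in that order). In the machinery itself, 0 of 11 genes rose and 2 fell (18.2%, beside 4.2% of all genes). With the TPM as deposited, without the filter and in the fits without a heart other than hypoxic heart 4, 0 fell. Epas1, the HIF-2 alpha subunit, had 55.5, 53.6 and 65.2 scaled TPM in hypoxic hearts, against 77.6, 100.5 and 79.8 in normoxic hearts, a difference of -0.55 ± 0.12 (limma, adjusted p = 0.0406), and the asparagine hydroxylase gene Hif1an differed by -0.55 ± 0.13 (limma, adjusted p = 0.0459). Hif1a itself stood at -0.18 ± 0.10 (limma, adjusted p = 0.261). Among 23 genes of glycolysis and lactate, Pfkp and Pgam1 were higher, by 0.78 ± 0.14 and 0.53 ± 0.12, and the glycogen genes Gys1 and Pygb lower, with differences of -0.38 ± 0.09 and -0.61 ± 0.14. Those calls are 8.7% of that list in each direction, beside 4.34% and 4.2% of all genes. With the TPM as deposited that list had 4 higher and 0 lower.

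**Figure D3:**
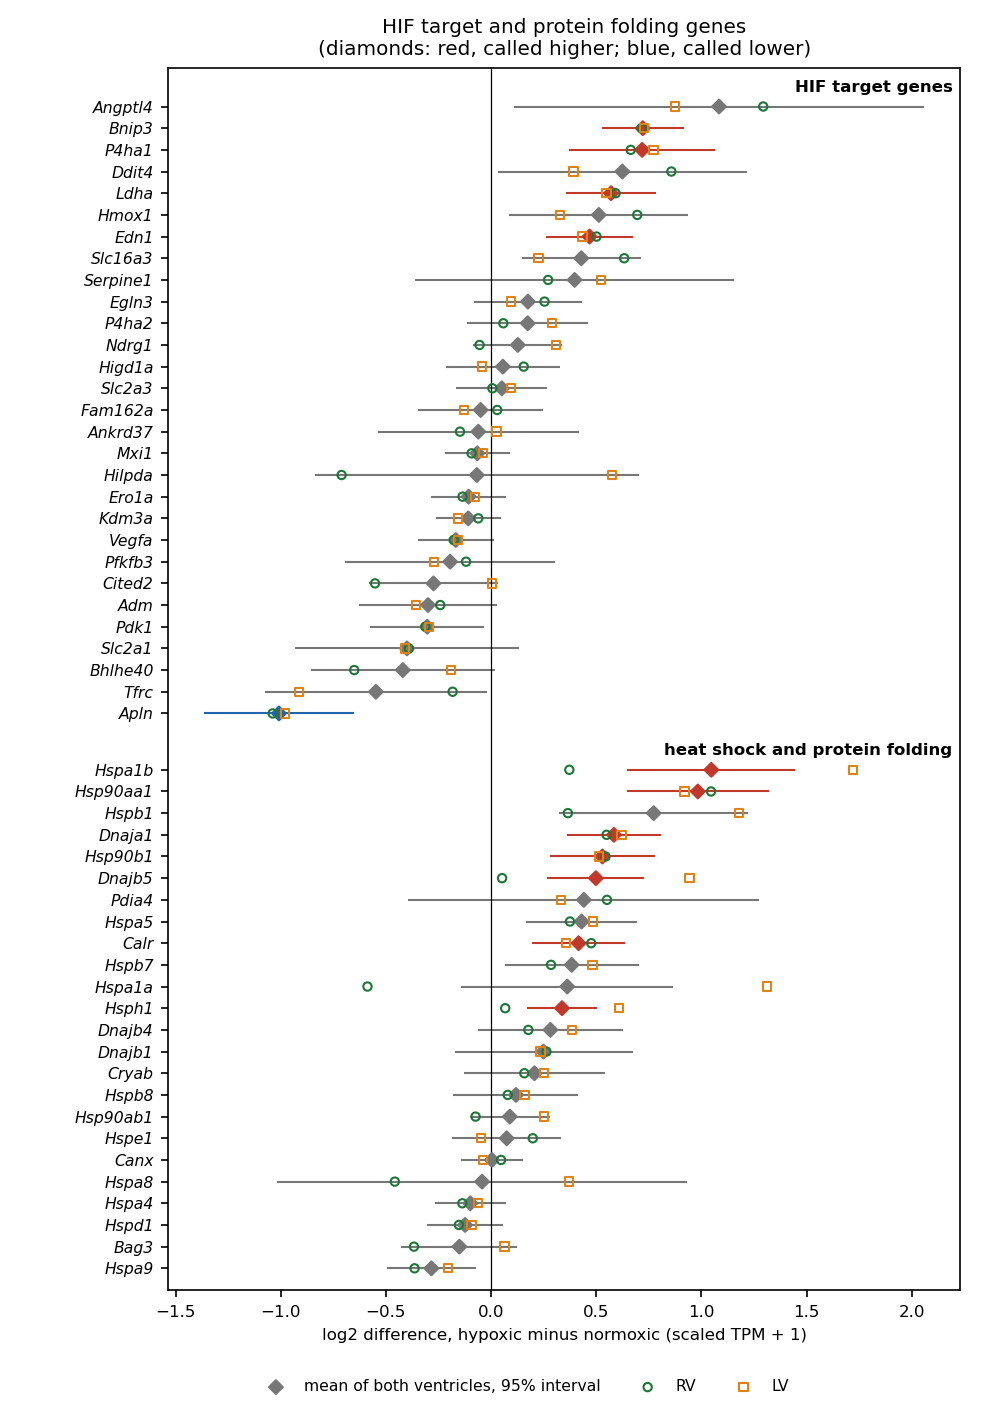
Log2 difference between hypoxic and normoxic hearts, with 95% intervals, for the HIF target genes and the heat shock and folding genes tested (diamonds, red where called higher and blue where called lower), with the RV (circles) and LV (squares) differences. Among the HIF target genes Ldha, Bnip3, P4ha1 and Edn1 lie to the right of 0, Apln to the left, and the rest, Vegfa, Slc2a1 and Pdk1 among them, did not pass the test. Hspa1b, Hsph1 and Dnajb5 have LV points well right of their RV points.

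Genes of fatty acid oxidation were lower in hypoxic hearts on the mean of both ventricles. Of the 35 tested members of the list, 19 were lower and 1 higher, 54.3% and 2.9% beside 4.2% and 4.34% of all genes. A negative sign was found in 31, and the median log2 difference was -0.47 (-0.64 in the RV and -0.35 in the LV) beside 0.00 over all genes. Within the RV alone 23 passed as lower and within the LV alone 0, beside 7.62% and 0.263% of all genes. With so few LV calls among all genes, 0 in this list does not show that it was unchanged there. Of the 20 called, 15 were alike in both ventricles and 7 had an unadjusted p below 0.05 for the difference between them. The number lower was 1, 0 and 23 without hypoxic hearts 1, 2 and 4 and 0, 3 and 0 without normoxic hearts 1, 2 and 3, while the median stayed at -0.53 to -0.41. With the TPM as deposited 19 were still lower and the median was -0.36.

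The falls lay at several steps. Fabp3, the carrier that takes fatty acids through the cytosol, and Acsl1, which activates them with coenzyme A, differed by -0.62 ± 0.12 and -0.66 ± 0.09. Entry into mitochondria was represented by Slc25a20 and Cpt2, the carnitine carrier and the inner transferase, at -0.46 ± 0.10 and -0.54 ± 0.10. Cpt1b, the muscle outer transferase, stood at -0.30 ± 0.10 and did not pass (limma, adjusted p = 0.0975). The acyl-CoA dehydrogenases Acadm, Acadvl and Acadl differed by -0.65 ± 0.11, -0.60 ± 0.10 and -0.36 ± 0.08. Both subunits of the trifunctional protein were lower to the same degree, Hadha at -0.70 ± 0.11 and Hadhb at -0.70 ± 0.12.

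Acaa2, the thiolase that cuts off acetyl-CoA, had the largest fall of the list. Its RV held 204, 228 and 369 scaled TPM in hypoxic hearts, against 929, 736 and 624 in normoxic hearts, and its LV held 232, 407 and 445 in hypoxic hearts, against 727, 741 and 569.9 in normoxic hearts. The groups did not overlap in either ventricle, and the log2 difference was -1.25 ± 0.23 (limma, adjusted p = 0.0252), -1.54 in the RV and -0.95 in the LV. Hadh, the short-chain hydroxyacyl-CoA dehydrogenase, had 201, 190.5 and 315 scaled TPM in hypoxic hearts, against 490.0, 455 and 475 in normoxic hearts, and fell by 1.04 ± 0.18 on the log2 scale (limma, adjusted p = 0.0237). The peroxisomal enzyme Ehhadh was lower as well, at -0.80 ± 0.13. In Acaa2, Hadh and the trifunctional subunits hypoxic heart 4 had the highest value of the hypoxic hearts.

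Ppara, the receptor that drives the genes of this route, and its coactivator Ppargc1a stood at -0.47 ± 0.17 and -0.69 ± 0.17 without passing (limma, adjusted p = 0.125 and 0.0521). Ucp2, an uncoupling-protein homologue, was the only member that rose, by 0.62 ± 0.14 (limma, adjusted p = 0.0425). Pdk4, a PPAR-alpha target that blocks pyruvate oxidation, stood at 0.80 ± 0.28 (limma, adjusted p = 0.109).

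Genes for the breakdown of ketones and branched-chain amino acids were lower too, with 9 of 19 lower (47.4%, beside 4.2% of all genes) and 0 higher. The median was -0.49, with -0.66 in the RV and -0.34 in the LV. Within the RV alone 12 passed as lower and within the LV alone 0, beside 7.62% and 0.263% of all genes. The RV effect was the larger in 17 of the 19. Bcat2, the mitochondrial transaminase that starts branched-chain breakdown, had 51.3, 57.7 and 82.2 scaled TPM in hypoxic hearts, against 119, 109 and 99.7 in normoxic hearts, a difference of -0.79 ± 0.17 (limma, adjusted p = 0.037). Dbt, a subunit of the dehydrogenase complex after it, and Mut, the methylmalonyl-CoA mutase, differed by -0.67 ± 0.12 and -0.71 ± 0.13. The number lower was 0, 0 and 17 without hypoxic hearts 1, 2 and 4 and 0, 0 and 0 without normoxic hearts 1, 2 and 3. In the citric acid cycle all 23 genes tested had a negative sign, with a median of -0.29. Only Ogdh and Suclg1 passed, at -0.64 ± 0.14 and -0.50 ± 0.09 (8.7%, beside 4.2% of all genes), and 3 of the 23 were positive with the TPM as deposited. None of the 40 nuclear genes of the respiratory chain and ATP synthase passed. They had a median of -0.15 with 37 negative, and with the TPM as deposited 16 were positive and the median was -0.02, so no direction is given for them. Of 13 protein-coding genes of the mitochondrial genome Mt-nd2 was called, with a difference of -0.61 ± 0.11, and 4 were lower with the TPM as deposited, 4 with robust variance moderation, 4 with the filter at 5 TPM, 3 with edgeR and 5 with DESeq2 on counts summed per heart, against 0 without the filter and 0 or 1 without any one heart.

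**Figure D4:**
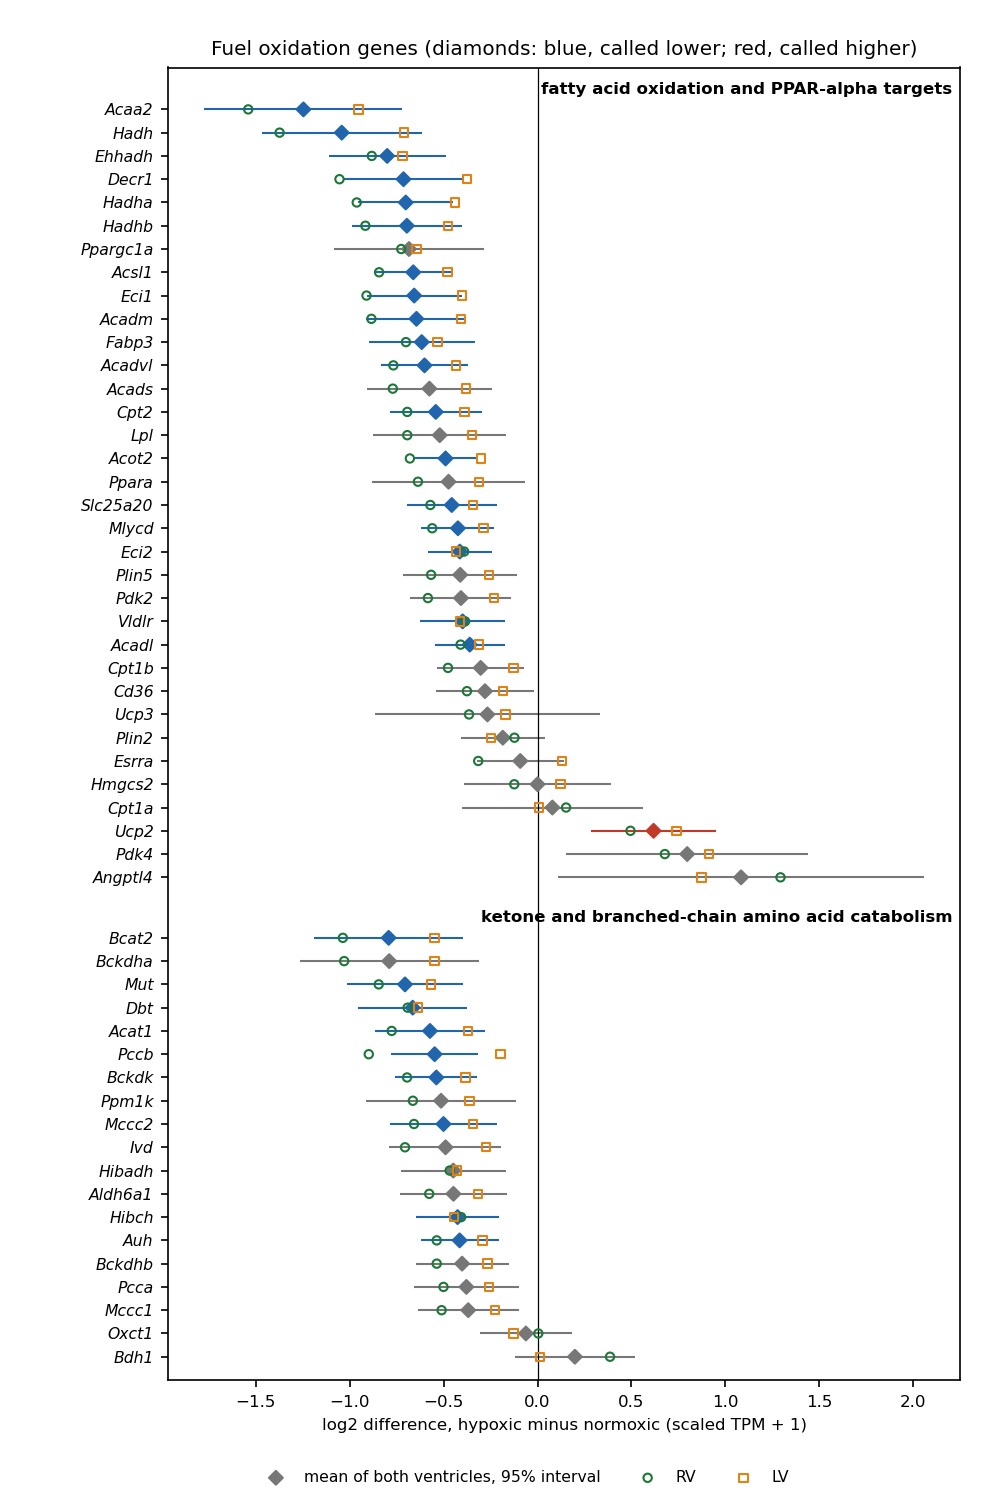
Log2 difference between hypoxic and normoxic hearts for genes of fatty acid oxidation and of ketone and branched-chain amino acid breakdown, with the mean of both ventricles as a diamond with its 95% interval and the RV (circles) and LV (squares) differences beside it. Most points of both lists lie left of 0, and Acaa2 and Hadh are the lowest, with the RV point further from 0 than the LV point in most genes.

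Protein-folding genes rose in part. Of 24 heat shock and folding genes 7 were higher and 0 lower, 29.2% higher beside 4.34% of all genes, with a median of 0.31. The number higher was 0, 0 and 10 without hypoxic hearts 1, 2 and 4 and 0, 1 and 0 without normoxic hearts 1, 2 and 3. Hsp90aa1, the inducible cytosolic HSP90, had 169.7, 185 and 128 scaled TPM in hypoxic hearts, against 81.5, 72.3 and 86.9 in normoxic hearts, a difference of 0.98 ± 0.14 (limma, adjusted p = 0.0187) that was alike in both ventricles, at 1.05 in the RV and 0.92 in the LV. Its endoplasmic reticulum relative Hsp90b1 and the lectin chaperone Calr rose by 0.53 ± 0.11 and 0.42 ± 0.10, also alike. Hspa1b, Hsph1 and Dnajb5 were called on the mean with the larger effect in the LV. Hspa1b differed by 0.37 in the RV and 1.72 in the LV, Hsph1 by 0.07 in the RV and 0.61 in the LV and Dnajb5 by 0.05 in the RV and 0.94 in the LV.

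The integrated stress response had 4 higher and 1 lower of 17 (23.5% and 5.9%, beside 4.34% and 4.2% of all genes). Atf4, its central transcription factor, rose by 0.41 ± 0.07 (limma, adjusted p = 0.0234), nearly the same in the RV (0.40) and the LV (0.42), and Mthfd2, a mitochondrial folate enzyme among its targets, by 0.73 ± 0.13. Atf3 and Ppp1r15a, also of this response, had the larger effect in the LV, Atf3 with 0.54 in the RV and 2.03 in the LV and Ppp1r15a with 0.08 in the RV and 0.82 in the LV. Metal-handling genes gave 2 higher of 18 (11.1%, beside 4.34% of all genes). The metallothionein Mt2A stood at 44.8, 33.6 and 48.8 scaled TPM in hypoxic hearts, against 14.1, 24.1 and 13.8 in normoxic hearts, a rise of 1.27 ± 0.23, and the ferritin light chain Ftl1 rose by 0.74 ± 0.13 (limma, adjusted p = 0.0248 and 0.0237). Of 20 glucocorticoid-induced genes Mt2A rose and Dusp1 fell, the second by 0.91 ± 0.22 on the log2 scale, 5% in each direction and so near the 4.34% and 4.2% of all genes. Of 23 antioxidant genes of the NRF2 group, Gpx1 and Gclc were the ones called, Gclc by 0.41 ± 0.08. They make 8.7% of the list, beside 4.34% of all genes.

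Genes known from cardiac load were among those called in both directions. Of 30 genes 11 were higher and 2 lower, 36.7% and 6.7% beside 4.34% and 4.2% of all genes. The median was 0.72 (0.665 in the RV and 0.821 in the LV), and 8 of the 13 called were alike. The number higher was 5, 4 and 16 without hypoxic hearts 1, 2 and 4 and 1, 4 and 4 without normoxic hearts 1, 2 and 3. Nppa, the atrial natriuretic peptide, had 953, 1610 and 930.2 scaled TPM in hypoxic RV and 1545, 4106 and 1822 in hypoxic LV, against 43.3, 27.1 and 28.7 in normoxic RV and 445, 842 and 516 in normoxic LV. Every hypoxic library was above every normoxic one of its ventricle, and the common difference was 3.52 ± 0.27 (limma, adjusted p = 0.00343). It was far from alike, at 5.08 in the RV and 1.97 in the LV, with an RV minus LV difference of 3.12 (95% interval 2.25 to 3.98) and an unadjusted limma p of 4.31e-05 for that difference. Nppb, its B-type relative, rose by 1.43 ± 0.28 (limma, adjusted p = 0.0305), 1.74 in the RV and 1.12 in the LV.

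Members that were alike in both ventricles were led by matrix and sarcomere-associated genes. Thbs4, a thrombospondin of tendon and stressed heart muscle, had 12.6, 5.71 and 3.48 scaled TPM in hypoxic hearts, against 0.423, 0.477 and 0.236 in normoxic hearts, a rise of 2.43 ± 0.36 (limma, adjusted p = 0.0187), 3.02 in the RV and 1.84 in the LV. With normoxic heart values under 1, hypoxic libraries alone may have carried Thbs4 past the filter. Its difference ranged from 1.995 to 4.721 over the main fit and the alternatives. Fhl1, a LIM protein of the titin spring region, differed by 1.30 in the RV and 1.32 in the LV, and Igf1, the growth factor, by 1.01 in the RV and 0.81 in the LV. Ctgf, a matrix-associated growth regulator, and the filamin Flnc had the larger effect in the LV, Ctgf with 0.87 in the RV and 2.05 in the LV and Flnc with 0.17 in the RV and 1.22 in the LV. Myl4, the atrial light chain that ventricles of adult rats carry little of, rose by 2.28 ± 0.51, but the LV library of hypoxic heart 1 was high in atrial genes, with Myl7 at 143 scaled TPM there and 0.461 to 25.5 in the other libraries, and without that heart the Myl4 difference was 1.64 (limma, adjusted p = 0.0515). The part of atrial tissue in this result was not tested.

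Some matrix genes rose. Of 41 matrix genes other than collagens 11 were higher and 0 lower (median 0.75), and of 14 collagen chains 2 were higher with all 14 positive (median 0.48). The shares higher were 26.8% and 14.3%, beside 4.34% of all genes. The matrix count was 1, 0 and 29 without hypoxic hearts 1, 2 and 4 and 0, 1 and 1 without normoxic hearts 1, 2 and 3. Serpinh1, the collagen chaperone, had 221, 208 and 153 scaled TPM in hypoxic hearts, against 105, 109 and 90.1 in normoxic hearts, a rise of 0.92 ± 0.15 (limma, adjusted p = 0.021), 0.99 in the RV and 0.84 in the LV. Loxl1, a collagen and elastin cross-linking oxidase, and the protease inhibitor Timp1 rose by 1.22 ± 0.29 and 1.18 ± 0.25, and Col3a1 by 0.99 ± 0.20. The fibroblast marker list leaned the same way. All 13 of its genes were positive, with a median of 0.75 and 1 called, the list as a whole sat 0.67, 0.31 and -0.06 log2 units from the mean of all hearts in hypoxic hearts 1, 2 and 4, and its summed level in scaled TPM was 1365 to 2364 in hypoxic RV and 1051 to 1656 in hypoxic LV, against 1114 to 1382 in normoxic RV and 853 to 1019 in normoxic LV. The part of fibroblast number in the matrix genes was not tested.

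Cell cycle genes were called on the mean mainly through the RV. Of 37 genes 21 were higher and 0 lower, 56.8% higher beside 4.34% of all genes. The median was 0.53, which was made of 0.94 in the RV and 0.13 in the LV. Only 1 of the 21 called genes, Cdc25b, was alike (0.75 in the RV and 0.74 in the LV), and 20 of the 21 had an unadjusted p below 0.05 for the difference between the ventricles, against 38.5% of all genes that rose, although none passed after adjustment over all genes. Cdk1, the mitotic kinase, was the largest, at 1.46 ± 0.19 (limma, adjusted p = 0.0173), 2.37 in the RV and 0.54 in the LV. Its difference ranged from 1.286 to 2.439 over the main fit and the alternatives. Several genes of the list were too low to be tested with the filter at 5 TPM. The pseudocount of 1 understates changes of such low genes, in the LV as in the RV. The count of higher genes was 3, 1 and 22 without hypoxic hearts 1, 2 and 4 and 0, 5 and 0 without normoxic hearts 1, 2 and 3.

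**Figure D5:**
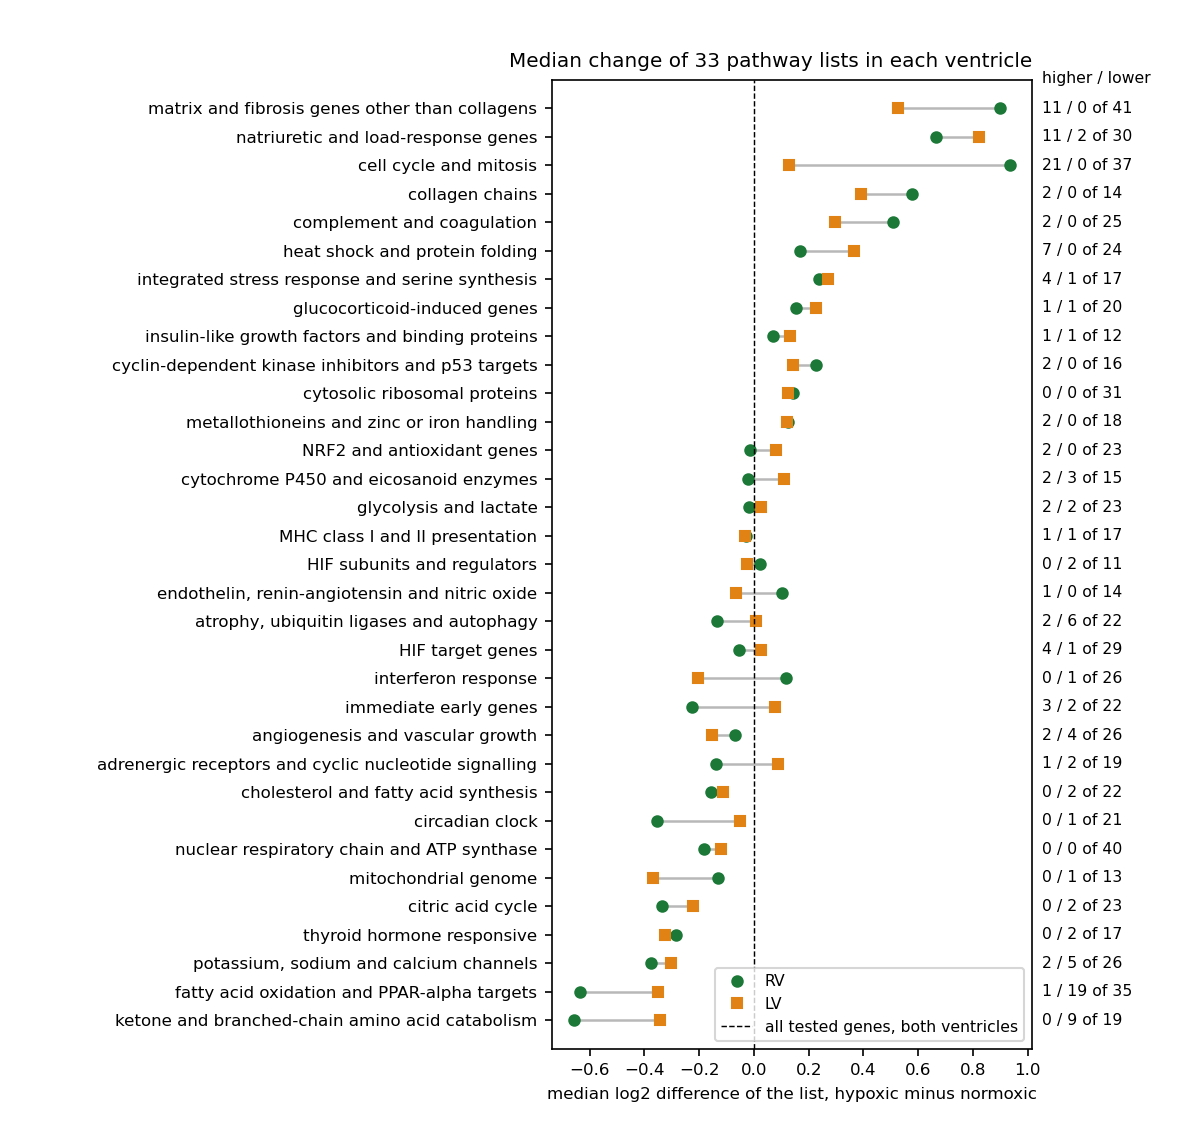
Median log2 difference between hypoxic and normoxic hearts for each of 33 pathway lists, the RV as circles and the LV as squares, with the numbers of genes called higher and lower at the side. Fatty acid oxidation and ketone and branched-chain breakdown lie left of 0 in both ventricles, and the cell cycle list has its RV median at 0.94 and its LV median at 0.13.

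Ion channel genes leaned downward. Of 26 potassium, sodium and calcium channel genes, 24 had a negative sign, 5 were lower and 2 higher, with a median of -0.33 (2 lower and 2 higher with the TPM as deposited). The shares lower and higher were 19.2% and 7.7%, beside 4.2% and 4.34% of all genes. The number lower was 0, 0 and 11 without hypoxic hearts 1, 2 and 4 and 0, 0 and 0 without normoxic hearts 1, 2 and 3. Kcnj5, a subunit of the acetylcholine-gated potassium channel, had 5.55, 5.39 and 8.38 scaled TPM in hypoxic hearts, against 12.2, 12.7 and 11.7 in normoxic hearts, a difference of -0.85 ± 0.15 (limma, adjusted p = 0.0234), -0.91 in the RV and -0.79 in the LV. The inward rectifier Kcnj12 and the transient outward channel Kcnd3 differed by -0.64 ± 0.15 and -0.42 ± 0.09. The genes that rose were the T-type calcium channels Cacna1g and Cacna1h, more typical of the fetal ventricle, by 0.74 ± 0.18 and 0.62 ± 0.14.

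Receptor and vascular genes gave a few calls. The alpha-1 adrenergic receptor genes Adra1b and Adra1d fell by 0.86 ± 0.12 and 0.99 ± 0.14 on the log2 scale (limma, adjusted p = 0.0187 and 0.0187), and Crem, which encodes repressors of cyclic AMP-driven transcription, rose by 1.05 ± 0.18 (limma, adjusted p = 0.0232), 1.04 in the RV and 1.06 in the LV. Adra1d had heart values of 1.11, 0.687 and 1.04 scaled TPM in hypoxic hearts, against 3.52, 2.39 and 2.75 in normoxic hearts. Adra1b, Adra1d and Crem were the ones called of 19, 5.3% higher and 10.5% lower beside 4.34% and 4.2% of all genes. Of 26 angiogenesis genes 2 rose and 4 fell (7.7% and 15.4%, beside 4.34% and 4.2% of all genes). Besides Angpt1 and Apln, the falls were in Nrp1, a co-receptor of vessel growth factors, at -0.63 ± 0.07, and Kdr, the main VEGF receptor, at -0.36 ± 0.06. Figf, a ligand of that family, and Cd34 rose by 0.59 ± 0.12 and 0.42 ± 0.10, and of the 6 calls only Cd34 was not alike in both ventricles, at 0.69 in the RV and 0.16 in the LV. The endothelial marker list had a median of 0.19 and a summed level, in scaled TPM, of 439 to 468 in hypoxic RV and 397 to 449.7 in hypoxic LV, against 353 to 413 in normoxic RV and 366 to 454 in normoxic LV.

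Among the called genes of muscle wasting more fell than rose, but the list as a whole did not lean. Of 22 genes of atrophy and autophagy 6 fell and 2 rose, 27.3% and 9.1% beside 4.2% and 4.34% of all genes. All 8 were alike in both ventricles (4 fell and 3 rose with the TPM as deposited). Signs were negative in 12 and positive in 10 of the 22, with a median of -0.045 (-0.134 in the RV and 0.008 in the LV). Within the LV alone 0 passed as lower, beside 0.263% of all genes. The number lower was 0, 0 and 6 without hypoxic hearts 1, 2 and 4 and 0, 2 and 0 without normoxic hearts 1, 2 and 3. Fbxo32, the muscle ubiquitin ligase also called atrogin, had 13.4, 11.5 and 15.3 scaled TPM in hypoxic hearts, against 24.3, 23.4 and 27.9 in normoxic hearts, a difference of -0.87 ± 0.12 (limma, adjusted p = 0.0179), -0.83 in the RV and -0.90 in the LV. Foxo1, the transcription factor that drives it, and the mitophagy kinase Pink1 differed by -0.55 ± 0.08 and -0.77 ± 0.13. The genes that rose were Bnip3 and the lysosomal protease Ctsl, the second by 0.41 ± 0.10.

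Among enzymes of lipid mediators and drug metabolism, Alox15 and the prostacyclin synthase Ptgis rose and Cyp2e1, Ephx2 and Cyp27a1 fell, 5 calls of 15 genes. The shares higher and lower were 13.3% and 20%, beside 4.34% and 4.2% of all genes. Without hypoxic hearts 1, 2 and 4 the list had 1, 0 and 2 higher and 0, 0 and 4 lower. Without normoxic hearts 1, 2 and 3 it had 0, 0 and 0 higher and 0, 1 and 1 lower. Cyp2e1, an oxidase of ethanol and ketones, had 0.819, 0.858 and 1.41 scaled TPM in hypoxic hearts, against 10.8, 7.13 and 4.5 in normoxic hearts, the largest fall of the list at -2.01 ± 0.26 (limma, adjusted p = 0.0179), -2.71 in the RV and -1.30 in the LV. Normoxic libraries alone may have carried Cyp2e1 past the filter. Ephx2, the soluble epoxide hydrolase, fell by 1.24 ± 0.23 on the log2 scale, -1.71 in the RV and -0.78 in the LV.

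Several blood cell transcripts rose, but not in every list. Of 9 T and NK cell markers tested 0 rose and 1 fell (11.1%, beside 4.2% of all genes). Of 6 mast cell markers and 1 B cell marker tested 0 were called. Alas2, the first enzyme of heme synthesis in red cell precursors, had 12.8, 18.2 and 22.2 scaled TPM in hypoxic RV and 13.4, 66 and 29.8 in hypoxic LV, against 7.58, 6.66 and 7.13 in normoxic RV and 6.57, 9.8 and 8.78 in normoxic LV. The rise was 1.46 ± 0.30 (limma, adjusted p = 0.0354), but the LV library of hypoxic heart 2 stood far above the rest, and without that heart it was 1.16 with an adjusted p of 0.0818 by limma. Ahsp, the alpha-globin chaperone, rose by 2.15 ± 0.52 (limma, adjusted p = 0.0491) and without hypoxic heart 2 stood at 1.52 (adjusted p = 0.065). The globins were higher on average without passing, Hbb by 1.49 ± 0.39 (limma, adjusted p = 0.0581). Of 14 erythroid markers present in the data, 6 were under the filter, 2 rose, and Gypc fell by 0.57 ± 0.10 on the log2 scale. Of the 8 tested, 25.0% were higher and 12.5% lower, beside 4.34% and 4.2% of all genes. The erythroid sum in scaled TPM was 6456 to 10480 in hypoxic RV and 6465 to 35370 in hypoxic LV, against 3670 to 4600 in normoxic RV and 4225 to 6438 in normoxic LV.

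The platelet chemokine Pf4 had 76.1, 46 and 58.2 scaled TPM in hypoxic RV and 50.8, 40.5 and 32.4 in hypoxic LV, against 20.8, 16.9 and 33.6 in normoxic RV and 20.3, 20.9 and 8.95 in normoxic LV. It rose by 1.32 ± 0.15 (limma, adjusted p = 0.0137), 1.33 in the RV and 1.31 in the LV, and 3 of 9 platelet markers passed the filter. Of these 3, Pf4 was the only 1 called (33.3%, beside 4.34% of all genes), and their median was 0.268. S100a8 and S100a9, calcium-binding proteins abundant in neutrophils, rose by 0.99 ± 0.21 and 1.23 ± 0.19, and the other 8 of 10 neutrophil markers were under the filter. Both were low, with a sum in scaled TPM of 6.73 to 9.98 in hypoxic RV and 4.2 to 8.82 in hypoxic LV, against 1.33 to 3.76 in normoxic RV and 1.26 to 2.71 in normoxic LV. Hypoxic libraries alone may have carried them past the filter. Of 19 macrophage markers Csf1r and Lyz2 rose, by 0.57 ± 0.13 and 0.82 ± 0.17 (10.5%, beside 4.34% of all genes). In this list 17 were positive, and the sum in scaled TPM was 339 to 522 in hypoxic RV and 183 to 283 in hypoxic LV, against 203 to 281 in normoxic RV and 121 to 185 in normoxic LV. Whether blood left in the tissue or cells settled in it carried these transcripts was not tested.

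Other lists gave few calls on the mean of both ventricles. None of 31 cytosolic ribosomal protein genes passed (median 0.13; 13 higher with the TPM as deposited), nor did any of 12 smooth muscle and pericyte markers (median 0.05). Cholesterol and fatty acid synthesis gave Fdft1 and Lss of 22, both lower, at -0.69 ± 0.12 and -0.55 ± 0.11 (9.1%, beside 4.2% of all genes). Complement and coagulation gave Procr, the endothelial protein C receptor, and Cd55, a brake on complement, of 25, at 0.88 ± 0.18 and 0.87 ± 0.11, both alike in the ventricles. They make 8.0% of the complement and coagulation list, beside 4.34% of all genes. That list was positive in 23 of 25 genes, with a median of 0.39. Of its genes 9 were higher in the RV alone and 0 in the LV alone, beside 7.86% and 0.272% of all genes. Among 17 thyroid hormone responsive genes Atp2a2, the calcium pump of the sarcoplasmic reticulum, and Me1 were lower, at -0.64 ± 0.14 and -0.53 ± 0.09 (11.8%, beside 4.2% of all genes), while 14 of the 17 were negative, with a median of -0.30.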

How the data were processed

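RNA of the RV and LV free walls of 6 rats was sequenced as stranded polyadenylated libraries (50 bp single reads). The authors aligned reads with kallisto 0.43.1 to the Ensembl rat transcriptome (Rnor_6.0), summed transcripts to genes with tximport and deposited TPM and estimated counts for each library. The deposited estimated counts are the TPM times a constant for each library, so they add no information on the reads behind a gene, and totals of 21468274 to 39991848 limit the precision. Exposure was read from the RMCH and RMNT codes in the sample names. The authors' edgeR comparisons were not used.

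TPM were scaled with TMM factors (edgeR 4.0.16), and log2(scaled TPM + 1) was averaged over the RV and LV of each heart. The pseudocount of 1 understates changes of genes near or below it. Hypoxic and normoxic hearts were compared with limma 3.58.1 (lmFit, eBayes with trend, R 4.3.3), with Benjamini-Hochberg adjustment over 12154 genes at TPM of at least 1 in at least 3 libraries; 27 entries whose symbol had become a number, 0.0408 to 0.0621% of a library, were left out. The RV, the LV and the RV minus LV difference of each heart were fitted in the same way. Errors are standard errors moderated by eBayes, which borrows variance across genes, with 4 residual and 3.05 to 3.56 prior degrees of freedom. p-values measure the spread between 3 rats per group. Genes named as largest were the 15 in each direction past the test, with a mean of at least 5 TPM, no overlap in either ventricle, a symbol that is no bare identifier, and effects of the same sign of which the smaller was at least 0.5 times the larger; others were named from lists. The members and lists were chosen with earlier results of these data known. Of 48 lists, 15 held cell markers and 33 pathways. The fit was tested on simulated data. Alternatives covered scaling, the pseudocount, the filter, leaving out each heart, replicate blocks, edgeR and DESeq2 1.42.0 on rounded estimated counts.
Deviations of the RV and LV libraries of a heart from their group means had r = 0.327, 0.139 and 0.371 in hypoxic hearts 1, 2 and 4, and 0.099, 0.267 and 0.276 in normoxic hearts 1, 2 and 3. The RV and LV of different hearts had r of -0.323 to 0.161, a range that holds the values of hypoxic heart 2 and normoxic heart 1. The samples of a heart come from the same animal. A few genes of the lists are counted but not reported by name here.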

Additional observations from a re-analysis of the deposited data

How the results depend on the processing

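Results are given as higher then lower calls on the mean of both ventricles, 527 and 511 in the report. Leaving out 1 heart gave 13 to 939 and 3 to 938 (RV alone 151 to 1359 and 106 to 1484, LV alone 6 to 17 and 1 to 12, difference between ventricles 0 to 2 and 0 to 1). TPM as deposited gave 1052 and 309 (RV 836 and 551, LV 112 and 23, difference 1 and 1). No filter on low values gave 145 and 114 (RV 438 and 288, LV 3 and 3), with more genes tested. Using all 12 libraries with rat as a replicate block gave 939 and 973 (difference 1 and 1), edgeR on them without a block 1477 and 1436, and DESeq2 on counts summed per heart 1095 and 905. In the LV alone a pseudocount of 0.1 gave 18 and 12. The cause of these shifts was not tested. The block by replicate number, which pairs no animals, gave 525 and 544 but shared only 295 and 323 calls with the report, edgeR on summed counts 644 and 535, robust variance moderation 530 and 525, a pseudocount of 0.1 478 and 479, and TPM of at least 5 486 and 525. Of 3153 values for 199 genes under the alternatives, 2091 kept direction and call, 1011 kept direction only, 51 gained a call and 0 reversed. Estimated counts limit what can be said of low genes.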

Other observations

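A further set of genes had close differences in the RV and the LV. They were picked after their values were seen, as called genes with a log2 difference of at least 1 whose RV and LV differences lay within 0.1 of each other, so no test goes with the picking. Of all called genes, 95 that rose and 114 that fell lay within 0.1, and 7 of each also reached 1. Besides Ncam1, Irx4, Pf4, Fhl1 and Crem, the rises were those of Maoa and Sfrp1. Maoa, the mitochondrial monoamine oxidase that breaks down noradrenaline and serotonin, had heart values of 192, 158 and 185 scaled TPM in hypoxic hearts, against 87.4, 87.7 and 68.2 in normoxic hearts, a difference of 1.14 in the RV and 1.12 in the LV. Sfrp1, a secreted antagonist of Wnt ligands, had 9.44, 7.74 and 5.07 scaled TPM in hypoxic hearts, against 2.4, 2.34 and 2.96 in normoxic hearts, a difference of 1.24 in the RV and 1.17 in the LV. The libraries of Sfrp1 did not overlap between the exposures in either ventricle, whereas those of Maoa overlapped in the LV. The 95% interval of the RV minus LV difference was wide for Maoa (-1.07 to 1.11) and for Pf4 (-1.15 to 1.18), so like values do not show equal effects. Besides Apln, Gpcpd1 and Fam131c, the falls were those of the potassium channel Kcna7 (-0.96 in the RV and -1.04 in the LV), of Igsf1 (-1.14 in the RV and -1.10 in the LV), of Fam81a (-1.22 in the RV and -1.20 in the LV) and of Ddn (-1.38 in the RV and -1.31 in the LV).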
